A study of Mus musculus with 21 samples.

Results

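The MAP kinase phosphatases described here are 8 genes, Dusp1, Dusp4, Dusp5, Dusp6, Dusp7, Dusp8, Dusp10 and Dusp16, of 23718 genes with reads in mouse heart RNA. They were taken by gene symbol from the deposited gene matrix, which lists 19096 genes, and Dusp5 was picked because it was lower on the high-fat diet in both vector groups. The diet values of Dusp5 are therefore given as a description, with no test. Hearts came from 21 male C57BL/6NJ mice that entered the study at 8 to 10 weeks of age, and each heart gave 1 library. For 10 weeks the mice ate chow or a high-fat diet, in which fat gave 60% of the energy. They received either AAV-Renin, an adeno-associated virus with the renin gene, or a null vector by injection behind the eye, and were killed 6 weeks after it. The groups were chow with the null vector (chow null, n = 4), chow with AAV-Renin (chow renin, n = 6), high-fat diet and null vector (high-fat null, n = 6), and high-fat diet and AAV-Renin (high-fat renin, n = 5). The series uses diet plus renin to model HFpEF (heart failure in which the ejection fraction is preserved), and each treatment alone as a component of it. Sample titles call the null vector groups "novirus", where the series text names a null vector. The promoter and serotype of the virus are not given in the sources used here.

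MAP kinases (ERK, JNK and p38) are switched on by phosphorylation of a threonine and a tyrosine in the same loop, and MAP kinase phosphatases switch them off by removing both phosphates. Dusp1, Dusp4 and Dusp5 encode nuclear enzymes whose genes are induced by the kinases they act on, Dusp6 and Dusp7 encode cytoplasmic enzymes that prefer ERK, and Dusp8, Dusp10 and Dusp16 encode enzymes that prefer JNK and p38. In heart muscle ERK is known for its part in growth of the cardiomyocyte, and JNK and p38 for their part in stress responses.

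The promoters of Dusp5 and Dusp1 are shown because both encode nuclear, inducible enzymes, and Dusp5 had a called difference with renin on chow where Dusp1 had none. Each line is the RefSeq window from 250 bases before to 50 bases after the gene's start on GRCm38.p6, read 5′ to 3′ on the gene's strand, with matches to the searched motifs in capitals. The Dusp5 window is chr19:53528895-53529194 on the plus strand, and the Dusp1 window is chr17:26508423-26508722 on the minus strand.
Dusp5: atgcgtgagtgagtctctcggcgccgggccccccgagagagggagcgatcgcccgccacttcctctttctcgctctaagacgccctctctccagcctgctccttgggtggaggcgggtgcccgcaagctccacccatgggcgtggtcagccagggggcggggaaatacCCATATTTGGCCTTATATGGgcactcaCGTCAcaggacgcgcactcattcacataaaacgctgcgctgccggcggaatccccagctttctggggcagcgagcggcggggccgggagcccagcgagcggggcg
Dusp1: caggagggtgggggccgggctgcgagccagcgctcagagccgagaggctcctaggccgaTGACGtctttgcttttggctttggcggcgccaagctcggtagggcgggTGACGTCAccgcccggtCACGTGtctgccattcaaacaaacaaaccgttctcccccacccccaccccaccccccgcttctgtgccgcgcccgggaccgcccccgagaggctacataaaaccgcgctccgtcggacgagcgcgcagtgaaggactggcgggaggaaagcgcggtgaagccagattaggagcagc
The Dusp5 window held 2 CArG boxes, the element bound by serum response factor, CCATATTTGG at -82 and CCTTATATGG at -72 from the start, and the letters TGACG on the opposite strand at -55. The Dusp1 window held the cyclic AMP response element TGACGTCA at -143, its shorter form TGACG at -191, and the E-box CACGTG at -126.

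Motifs were searched on both strands in 7 members with a RefSeq window, which excludes Dusp4. Dusp5 was the 1 member with a CArG box, which occurred in 1.63% of 32851 promoter windows of the same 300-base length. TGACGTCA occurred in the Dusp1 and Dusp8 windows, with 2 copies in Dusp8 at -107 and -63, and in 1.79% of all windows. TGACG, which lies inside TGACGTCA, occurred in 4 members (Dusp1, Dusp5, Dusp8 and Dusp16) and in 20.8% of windows. The AP-1 motif TGANTCA occurred in 0 members and 7.81% of windows, and CACGTG in 1 member and 7.15% of windows. These matches describe letters only.

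Library totals ranged from 18.74 to 29.27 M (mega) estimated reads, and the 4 chow null libraries (18.74 to 21.41 M) lay below the 17 others. All 6 cardiomyocyte markers had reads in every group, with summed levels of 39760 to 60480 CPM, which are reads per M reads after TMM scaling. The chow renin libraries stood apart in 17 marker genes of central neurons, oligodendrocytes and astrocytes, whose summed level was 322 to 535.7 CPM there and 91.02 to 166.2 CPM in the other groups. Summed atrial markers varied from 31.04 to 1103 CPM between libraries, with wide ranges in every group. Ren1, the endogenous renin gene, had at most 5 reads in any library, so these counts give no check of the vector.

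Per unit of transcript length, Dusp1 was the most abundant of the phosphatases in heart, at a mean of 41.62 TPM (transcripts per M transcripts; SD 9.17, n = 21). Dusp7 followed at 14.12 TPM. Both of these ranked above the next gene in all 21 libraries. Dusp8 (7.11 TPM) and Dusp6 (6.73 TPM) could not be ordered, as Dusp8 was the higher in only 12 of 21 libraries. The order of Dusp16 (3.49 TPM) and Dusp5 (3.30 TPM) went with the group. Dusp5 had the higher mean in chow renin (5.51 beside 3.41 TPM), and Dusp16 in high-fat null (3.45 beside 2.16 TPM) and high-fat renin (3.56 beside 1.98 TPM). Dusp10 lay at 2.001 TPM and Dusp4 at 1.37 TPM. The classical family members outside the list were scarcer, with Dusp2 at 0.297 TPM and Dusp9 at 0.0285 TPM. All 8 members passed the filter on low counts, and the least abundant, Dusp4, had 52 to 216 estimated reads per library.

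**Figure D1:**
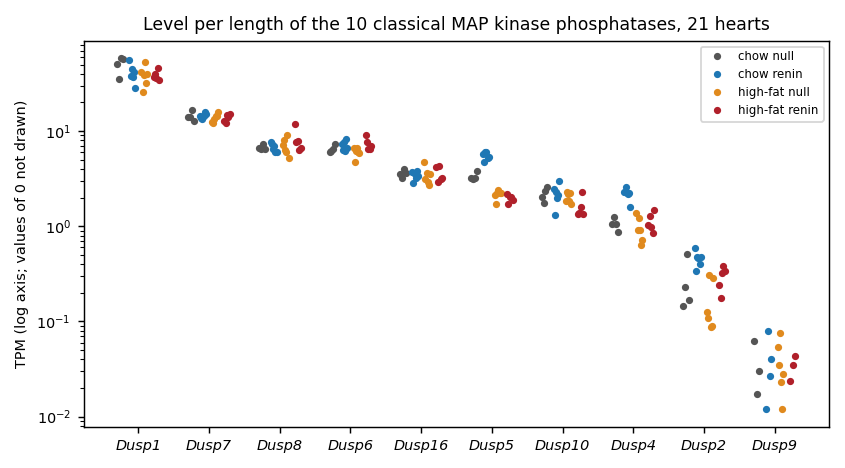
TPM of each phosphatase in each of the 21 libraries on a log axis, ordered by mean level. Dusp1 at a mean of 41.62 TPM and Dusp7 at 14.12 TPM are separate from the rest, whereas the points of Dusp8 and Dusp6, and of Dusp16 and Dusp5, overlap.

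The share of variance in log2 CPM that lay between the 4 groups differed widely among the members. It was 95.27% for Dusp5 and 70.37% for Dusp4, 37.99% for Dusp10, and between 18.0% and 29.15% for the other 5. Dusp5 was chosen for its diet difference, so its share is a description.

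**Figure D2:**
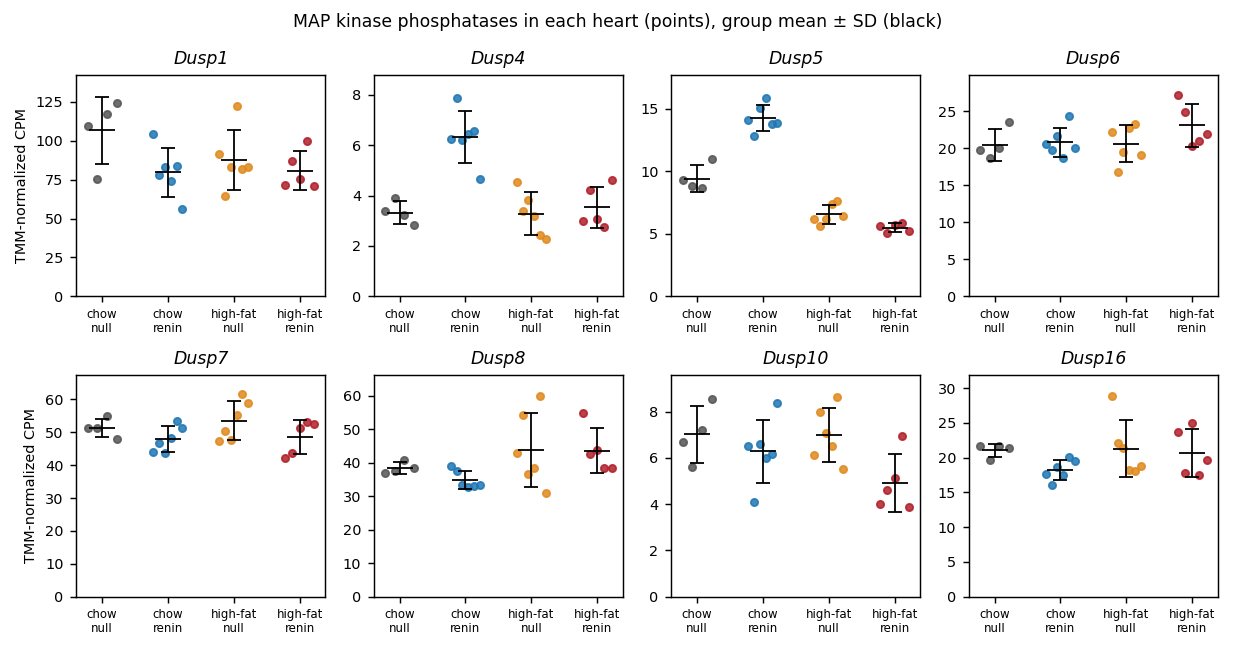
CPM of each phosphatase in every library by group, with the group mean and SD. Dusp5 is highest in chow renin (12.84 to 15.86 CPM) and lowest in high-fat renin (5.02 to 5.86 CPM), Dusp4 is highest in chow renin, and the groups overlap for the other 6 genes.

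Dusp5 (ENSMUSG00000034765, chr19:53529109-53542431 on the plus strand of GRCm38), which encodes a nuclear phosphatase specific for ERK, was highest with renin on chow and lowest on the high-fat diet. Its chow null libraries had 9.26, 8.78, 8.62 and 10.96 CPM. Chow renin ranged from 12.84 through a median of 13.95 to 15.86 CPM. All 6 chow renin values lay above all 4 chow null values. High-fat null ranged from 5.59 through a median of 6.29 to 7.60 CPM, and high-fat renin libraries had 5.65, 5.02, 5.67, 5.86 and 5.23 CPM. Every high-fat library thus lay below every chow library, while the 2 high-fat groups overlapped. Between high-fat null and chow null such a lower group without overlap occurred in 1.36% of all tested genes, between diets under renin in 9.78%, and between high-fat renin and chow null in 5.07%, shares given beside a gene chosen on this difference.

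With renin on chow, Dusp5 rose from 9.40 ± 1.07 CPM (SD, n = 4) to 14.23 ± 1.07 in the 6 chow renin hearts, a log2 difference of 0.60 (SE 0.09, edgeR quasi-likelihood F test with Benjamini-Hochberg adjustment over 15216 genes, adjusted p = 5.2e-05). The call held in each of the 10 fits without 1 library. In bulk hearts, more cells of a type that makes a transcript and more RNA per cell cannot be told apart. The 17 central nervous markers moved with this comparison, with 16 of 17 called higher in chow renin. With their score as a covariate in the edgeR fit, the Dusp5 difference was 0.87 (adjusted p = 0.372). The score was 3.45 to 4.25 in chow renin and 1.37 to 2.41 in all other libraries, so score and group cannot be told apart. Clock genes moved too, with 2 of 9 day genes called lower and 2 of 5 night genes higher, and with a clock score as a covariate the Dusp5 difference was 0.65 (edgeR adjusted p = 0.000855).

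On the high-fat diet, renin gave no called difference in Dusp5. The level was 6.55 ± 0.781 CPM (SD, n = 6) in high-fat null and 5.49 ± 0.346 (n = 5) in high-fat renin, a log2 difference of -0.25 (SE 0.09, edgeR adjusted p = 0.0736). Of the 5 high-fat renin libraries, 2 lay below all high-fat null libraries. Without high-fat null replicate 2, the library with the lowest value of its group, the edgeR adjusted p was 0.0458.

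The diet values of Dusp5, on which it was chosen, are as follows. Between high-fat null and chow null the log2 difference was -0.52 (SE 0.10), a 1.44-fold lower level, with all 6 high-fat libraries below the chow ones. Under renin the difference between diets was -1.37 (SE 0.09), 2.59-fold lower, with 5 of 5 below. High-fat renin lay 1.71-fold below chow null, a log2 difference of -0.78 (SE 0.10). The diet difference under renin minus that under the null vector came to -0.85 (SE 0.13) on the log2 scale. Between diets under renin and in this interaction, 16 of 17 central nervous markers were called lower. With their score as a covariate the Dusp5 values there were -1.60 (SE 0.24) and -1.14 (SE 0.31), in a fit where score and group cannot be told apart. In the authors' deposited table, whose column is headed by diet with virus and names no reference group, Dusp5 had a log2 fold change of -0.73.

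Dusp4 (ENSMUSG00000031530, chr8:34807297-34819894 on the plus strand), which encodes a nuclear phosphatase of ERK, JNK and p38, rose with renin on chow and overlapped chow null in both high-fat groups. Chow null libraries had 3.39, 3.89, 3.22 and 2.81 CPM, and chow renin ranged from 4.66 through a median of 6.35 to 7.88 CPM. The lowest chow renin value exceeded the highest chow null value. High-fat null ranged from 2.28 through a median of 3.28 to 4.53 CPM, and high-fat renin libraries had 2.99, 4.21, 3.09, 2.76 and 4.60 CPM. These 2 groups overlapped each other and chow null.

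The mean of Dusp4 was 3.33 ± 0.446 CPM (SD, n = 4) in chow null and 6.34 ± 1.03 (n = 6) in chow renin, a log2 difference of 0.93 (SE 0.19, edgeR adjusted p = 0.000997). Between diets under renin it fell by 0.84 on the log2 scale (SE 0.17, edgeR adjusted p = 0.000783), to 3.53 ± 0.822 CPM (n = 5), and all 5 high-fat renin libraries lay below all chow renin libraries. Both calls held in every fit without 1 library, 10 and 11 fits respectively. The interaction, which subtracts the renin difference on chow from the one on the high-fat diet, was -0.82 on the log2 scale (SE 0.26, edgeR adjusted p = 0.0408). Without 1 library the interaction stayed between -0.71 and -0.94, but its call depended on single libraries. It was no longer called without any 1 of chow null replicates 1, 3 or 4, chow renin replicates 1 to 5, high-fat null replicates 1 to 4, or high-fat renin replicates 1, 3 or 4 (edgeR adjusted p from 0.0523 to 0.0903).

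The central nervous markers moved with Dusp4 in these 3 comparisons, with 16 of 17 called higher in chow renin than in chow null, 16 of 17 lower in high-fat renin than in chow renin, and 16 of 17 lower in the interaction. In the edgeR fit with their score as a covariate, the Dusp4 differences were 0.38 (SE 0.54, adjusted p = 0.919), -0.39 (SE 0.45, adjusted p = 0.9996) and -0.23 (SE 0.59, adjusted p = 0.9997). The score was 3.45 to 4.25 in chow renin and 1.37 to 2.41 in all other libraries, so score and group cannot be told apart. Of 6 cardiomyocyte markers, 2 were called lower in chow renin than in chow null, and 4 were called lower and 1 higher in high-fat renin than in chow renin, and their part in the Dusp4 result was not tested. On the high-fat diet, 0 of 17 central nervous markers and 4 of 6 cardiomyocyte markers (all lower) were called with renin, and Dusp4 was not (log2 difference 0.11, SE 0.18, edgeR adjusted p = 0.750).

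Dusp1 (ENSMUSG00000024190, chr17:26505590-26562128 on the minus strand), which encodes the stress-induced nuclear phosphatase of p38, JNK and ERK, had a coefficient of variation of 15.3% to 21.8% within groups. Chow null libraries had 109.7, 75.3, 117.3 and 124.4 CPM, and high-fat renin libraries had 71.3, 87.0, 75.1, 99.8 and 71.2 CPM. Chow renin ranged from 55.9 through a median of 80.6 to 104.4 CPM and high-fat null from 64.4 through 83.1 to 122.2 CPM. All groups overlapped. The log2 difference from chow null was -0.42 in chow renin (SE 0.17, edgeR adjusted p = 0.122), -0.40 in high-fat renin (SE 0.18, adjusted p = 0.179) and -0.28 in high-fat null (SE 0.17, adjusted p = 0.574), and none was called. Without chow null replicate 2, the lowest of its group, the edgeR adjusted p of the chow renin difference was 0.0431. With a clock score as a covariate that difference was -0.23 (SE 0.22, edgeR adjusted p = 0.62). With the central nervous score it was -0.80 (SE 0.53, edgeR adjusted p = 0.761). In this comparison 16 of 17 central nervous markers were called higher, 2 of 9 clock day genes lower and 2 of 5 night genes higher.

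Neither cytoplasmic ERK phosphatase had a called difference. Dusp6 lies at chr10:99263231-99267489 on the plus strand and Dusp7 at chr9:106368632-106375724 on the plus strand. Dusp6, a feedback inhibitor whose gene is itself an ERK target, had means of 20.5 ± 2.15 CPM (SD, n = 4), 20.8 ± 1.96 (n = 6), 20.6 ± 2.53 (n = 6) and 23.1 ± 2.88 (n = 5) in chow null, chow renin, high-fat null and high-fat renin. In the fit by group the largest of its log2 differences was 0.17, between high-fat renin and chow null (SE 0.10, interval of 2 SE from -0.04 to 0.38, edgeR adjusted p = 0.336). Dusp7, a close relative of Dusp6, had means of 51.3 ± 2.85, 47.9 ± 3.88, 53.6 ± 5.93 and 48.6 ± 5.15 CPM in the same order. Its largest log2 difference was -0.14, between the renin and null vectors on the high-fat diet (SE 0.08, interval from -0.30 to 0.02, edgeR adjusted p = 0.267). These intervals leave room for small changes and do not show that levels were equal. In the fit that adds the central nervous score the Dusp6 difference was 0.74 for renin on chow (SE 0.25, edgeR adjusted p = 0.384) and -0.45 between diets under renin (SE 0.21, adjusted p = 0.9996).

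Among the JNK and p38 phosphatases, Dusp10 (ENSMUSG00000039384, chr1:184013302-184075636 on the plus strand) had its lowest mean with renin on the high-fat diet. High-fat renin libraries had 4.00, 4.60, 5.13, 6.94 and 3.87 CPM, and high-fat null ranged from 5.53 through a median of 6.80 to 8.63 CPM. Replicate 4 of high-fat renin lay among the high-fat null values and the other 4 lay below all of them. Chow null libraries had 6.67, 5.61, 7.22 and 8.53 CPM, and chow renin ranged from 4.09 through 6.33 to 8.35 CPM.

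The log2 difference of Dusp10 between high-fat renin and high-fat null was -0.50 (SE 0.17, edgeR adjusted p = 0.0537), just outside the threshold. It was called with upper-quartile scaling (adjusted p = 0.0492), by DESeq2 (adjusted p = 0.0325), and in edgeR without high-fat renin replicate 4 (0.00863), high-fat null replicate 1 (0.0434) or high-fat null replicate 6 (0.0429). Against chow null, high-fat renin differed by -0.51 (SE 0.19, edgeR adjusted p = 0.0889), or 0.0177 without replicate 4 of high-fat renin. Against chow renin it differed by -0.35 (SE 0.17, edgeR adjusted p = 0.139), or 0.0251 without that library and 0.0461 without chow renin replicate 2. Clock and cardiomyocyte genes moved with these comparisons. Of 6 cardiomyocyte markers, 4 were called lower in high-fat renin than in each of the other groups, and 1 was called higher than in chow renin. Of 9 clock genes high by day, 2 were called lower in high-fat renin than in high-fat null, 4 lower than in chow null and 3 lower than in chow renin. With a clock score as a covariate the Dusp10 differences in that order were -0.35, -0.26 and -0.29 (edgeR adjusted p = 0.665, 0.885 and 0.305), in a fit that called 8 genes in all in the first of these comparisons and 0 in the second.

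Dusp8 and Dusp16, the remaining enzymes of this class, had no called difference in the fit of all 4 groups. Dusp8 ranged from 36.9 to 40.9 CPM in chow null, 32.7 to 39.1 in chow renin, 30.8 to 59.9 in high-fat null and 38.4 to 54.8 in high-fat renin. Dusp8 lies at chr7:142079490-142095843 on the minus strand and Dusp16 at chr6:134715468-134792625 on the minus strand. The log2 difference of Dusp8 between diets under renin was 0.32 (SE 0.13, edgeR adjusted p = 0.0773), with 3 of 5 high-fat libraries above all chow ones. It was called when only those 2 groups were fitted (edgeR adjusted p = 0.0125). With a clock score as a covariate it was 0.19 (edgeR adjusted p = 0.293), and with the central nervous score 0.13 (adjusted p = 0.9996). In this comparison 16 of 17 central nervous markers were called lower, and their part was not tested. Dusp16 ranged from 19.7 to 21.7 CPM in chow null, 16.1 to 20.1 in chow renin, 18.1 to 28.9 in high-fat null and 17.5 to 24.9 in high-fat renin. Its largest log2 difference was -0.21, between chow renin and chow null (SE 0.12, edgeR adjusted p = 0.290), where 5 of 6 chow renin libraries lay below all chow null ones.

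**Figure D3:**
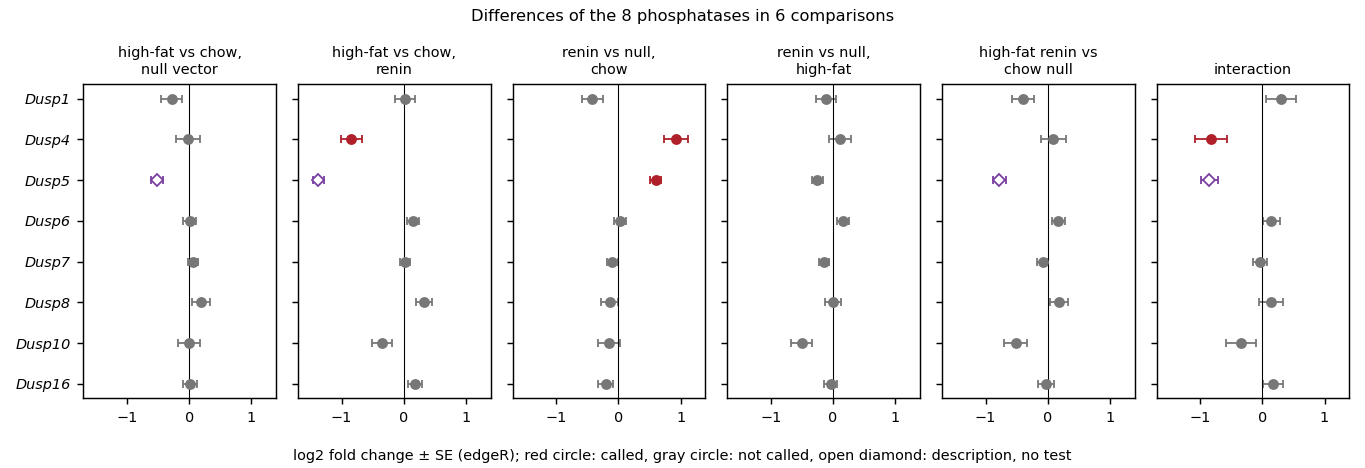
Log2 difference of each phosphatase in each comparison, with bars of ± SE, from the edgeR fit over 21 libraries. Dusp4 and Dusp5 lie above 0 for renin on chow (0.93 and 0.60), and both lie below 0 between diets under renin (-0.84 and -1.37), the Dusp5 diet values being the ones it was chosen on.

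Read against all genes, few members were called in any comparison. With renin on chow 2 of 8 were called, Dusp4 and Dusp5, where 13.5% of all tested genes were. Both were higher, as were 10.1% of all genes, and their groups did not overlap, which held for 10.4% of genes in that direction. Between diets under renin 1 of 7 tested members (Dusp4) was called against 22.6% of genes. It was lower, as were 12.8% of all genes, and its groups did not overlap, which held for 9.78% of genes in that direction. In the interaction 1 of 7 (Dusp4) was called against 10.4%, and it was lower, as were 7.3% of all genes. Between renin and null vector on the high-fat diet 0 of 8 members were called against 11.1% of genes, and between high-fat renin and chow null 0 of 7 against 8.29%. Between high-fat null and chow null 0 of 7 were called against 0.0657%, which is 10 genes. The share of members called was close to or below that of all genes except with renin on chow, where it rests on 2 genes. In edgeR at an unadjusted p under 0.05, Dusp5 and Dusp10 passed in the renin comparison on the high-fat diet, Dusp1 and Dusp10 passed between high-fat renin and chow null, and no member passed between high-fat null and chow null. Of all 15216 genes, 4026, 3643 and 1668 passed there in the same order, so these counts are near the background. DESeq2 called 1, 0 and 0 members there.

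The median log2 difference of the 8 members was -0.12 with renin on chow (-0.14 without Dusp5), beside -0.03 for all genes tested, and -0.08 for renin on the high-fat diet (-0.04 without Dusp5), beside -0.01. Without Dusp5, which was chosen on its diet difference, the median of the other 7 was 0.02 between diets under renin, beside 0.02 for all genes, and -0.03 between high-fat renin and chow null, beside 0.01. In the authors' deposited table the 7 members other than Dusp5 had log2 fold changes from -0.18 (Dusp1) to 0.10 (Dusp6), with adjusted p-values of 0.175 or more.

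The members were not a block that varied together. Over 21 libraries Dusp4 and Dusp5 had a Pearson r of 0.64 in log2 CPM, but after group means were removed their r was -0.53. The highest r within groups were 0.42 for Dusp5 with Dusp6, 0.42 for Dusp1 with Dusp6 and 0.40 for Dusp1 with Dusp5. These are descriptions over libraries that share depth and group.

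The genes whose pattern was most like that of Dusp5, among 13156 tested genes with a mean of at least 1 CPM, were Idi1 (r = 0.93 over 21 libraries, 0.69 within groups), Gm8730 (0.93 and 0.33), Il6 (0.93 and 0.41), Fam110c (0.92 and 0.30) and Kcnk10 (0.92 and 0.31). Idi1 encodes an isomerase of the sterol and isoprenoid route, and Il6 encodes the cytokine interleukin-6. All 5 had their highest mean in chow renin, for example Idi1 at 23.2 CPM beside 10.49 in chow null, 8.85 in high-fat null and 8.73 in high-fat renin. For Dusp4 the nearest were Cers6, a ceramide synthase (0.93 and 0.76), Hrh3, a histamine receptor of neurons (0.92 and 0.72), and Wasf1, an actin regulator abundant in brain (0.91 and 0.67). Hrh3 averaged 2.52 CPM in chow renin and at most 0.611 CPM in the other groups.

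The remaining members had less close partners. Dusp1 lay nearest to Gdpgp1 (r = 0.80), Setd6 (0.76) and Fos (0.75), the last an immediate early transcription factor gene, and Dusp1 with Fos kept an r of 0.74 within groups. Dusp10 lay nearest to Gramd4 (0.84), Pink1 (0.82), which encodes a kinase of mitochondrial quality control, and Nipsnap2 (0.81). Pink1 averaged 484.5 CPM in high-fat renin and 688.9 CPM in high-fat null. The nearest genes were Polh for Dusp6 (0.83), Tcf15 for Dusp7 (0.83), Tmem8b for Dusp8 (0.82) and Cnksr3 for Dusp16 (0.72).

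**Figure D4:**
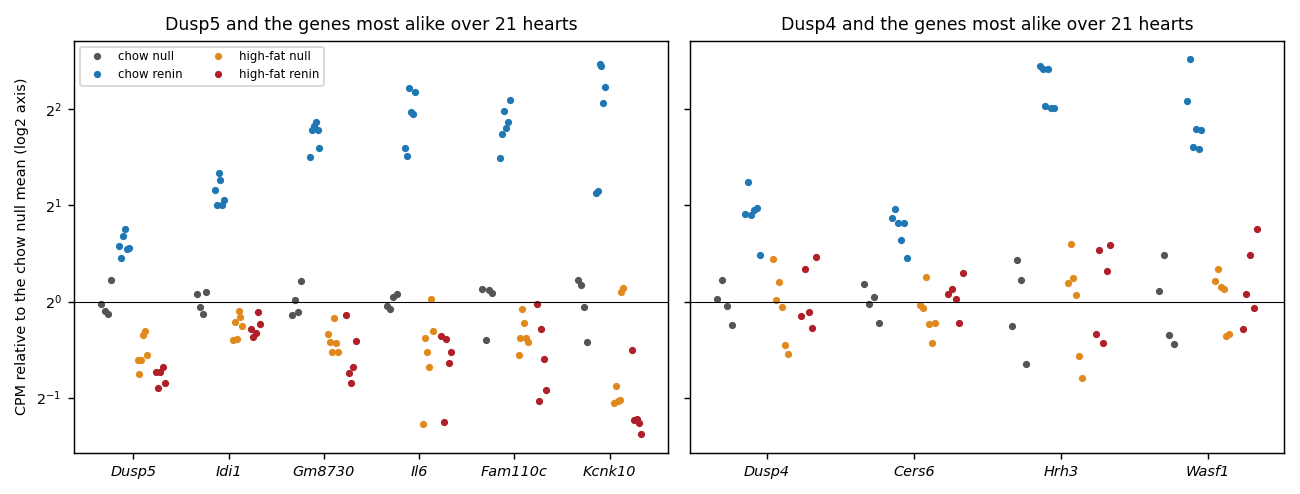
CPM relative to the chow null mean of each gene, on a log2 axis, by library and group. Shown are Dusp5 with its 5 most alike genes and Dusp4 with its 3. The chow renin libraries are the highest for every gene shown, as for Dusp5 at 12.84 to 15.86 CPM.

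Transcript shares showed a single main form for most members. Dusp4 and Dusp5 have 1 transcript each in the tables, and the main transcripts of Dusp6, Dusp7, Dusp8 and Dusp10 held 98.4%, 99.2%, 99.5% and 99.5% of their reads. For Dusp1, the main transcript held 84.5% and a retained-intron form 12.9%. The retained-intron share was 9.90% ± 1.16 (SD, n = 4), 12.7% ± 2.65 (n = 6), 15.4% ± 4.57 (n = 6) and 13.5% ± 1.45 (n = 5) in the same order of groups, and it was not tested. The main Dusp16 transcript held 79.8% of the reads, and the share given to the next one went from 0% to 57.9% between libraries, so the split of these 2 forms was unstable. The span of Dusp1 overlaps Ergic1 on the opposite strand, and the use of strand in counting is not given in the sources used here.

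Growth factor ligands that act upstream of ERK rose with renin on chow in 3 of 11 genes, where 10.1% of all tested genes rose, and none fell. In that comparison 16 of 17 central nervous markers were also called higher, and between diets under renin 16 of 17 were called lower, and their part in the calls of this list was not tested. Ereg, an EGF receptor ligand, went from 13.0 ± 1.29 CPM (SD, n = 4) to 55.6 ± 5.52 (n = 6), a log2 difference of 2.10 (edgeR adjusted p = 6.13e-13). Areg, another EGF receptor ligand, rose by 1.67 and Nrg1, the neuregulin that signals to cardiomyocytes, by 1.07. Between diets under renin the same 3 genes fell, by 2.82 (Areg), 2.35 (Ereg) and 1.21 (Nrg1), and Hbegf and Btc rose by 0.73 and 0.74, which makes 5 of 11 called beside 22.6% of all genes. With renin on the high-fat diet, where 11.1% of all genes were called, 1 of 11 rose, Hbegf, by 1.33 (SE 0.21, edgeR adjusted p = 0.00137), and 1 fell, Fgf16, by 0.74. Hbegf was also higher in high-fat renin than in chow null, by 1.14, the 1 of 11 called there beside 8.29% of all genes. In both of these comparisons 4 of 6 cardiomyocyte markers and some clock day genes (2 and 4 of 9) were called lower, and their part was not tested.

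With renin on chow 0 of 11 tested MAP kinases and 0 of 10 MAP kinase kinases and RAF kinases were called, where 13.5% of all tested genes were, and lists this short can hold no called gene at that share. Mapk3, a MAP kinase gene, differed by -0.09 on the log2 scale there (edgeR adjusted p = 0.602), and Map2k1 and Map2k2, whose products phosphorylate ERK, by 0.05 and -0.13 (adjusted p = 0.682 and 0.233). With renin on the high-fat diet, where 11.1% of all genes were called, 1 of 11 fell, Mapk14, which encodes p38 alpha, from 81.3 ± 5.83 CPM (SD, n = 6) to 62.3 ± 6.72 (n = 5), a log2 difference of -0.38 (SE 0.08, edgeR adjusted p = 0.00452). Between diets under renin Mapk13, another p38 gene, fell by 1.63 from a low level of 0.562 CPM, and Braf, which encodes a RAF kinase, fell by 0.25, beside 12.8% of all genes called lower. In that comparison 16 of 17 central nervous markers were called lower, and in the Mapk14 comparison 4 of 6 cardiomyocyte and 2 of 9 clock day genes were, and their part was not tested. No kinase was called between high-fat null and chow null, between high-fat renin and chow null, or in the interaction.

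Of the transcripts known to follow ERK activity, 4 of 12 rose with renin on chow, beside 10.1% of all tested genes, and none fell. Fosl1, a FOS-family transcription factor gene, went from 0.800 ± 0.228 CPM (SD, n = 4) to 5.16 ± 0.947 (n = 6), a log2 difference of 2.69 (edgeR adjusted p = 9.44e-09). Myc rose by 1.20, the ephrin receptor gene Epha2 by 0.64 and Ier3 by 0.46. Between diets under renin 4 of 12 fell, beside 12.8% of all genes (Fosl1 by 2.05, Myc by 1.03, Epha2 by 0.70 and Etv1 by 0.53) and the cyclin gene Ccnd1 rose by 0.42. With renin on the high-fat diet 1 of 12 rose, Etv4, by 1.46, beside 11.1% of all genes called. Its level was low, with means of 0.559 CPM in high-fat null and 1.55 in high-fat renin, and these groups overlapped. Between high-fat renin and chow null 0 of 12 were called, beside 8.29%. In both comparisons, 4 of 6 cardiomyocyte markers and some clock day genes (2 and 4 of 9) were called lower. In the interaction Fosl1, Myc and Epha2 were lower and Ccnd1 was higher, 4 of 12 beside 10.4% of all genes, and 16 of 17 central nervous markers were called lower. Of the 17 central nervous markers, 16 were called higher in chow renin alongside these genes, and their part was not tested.

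Immediate early genes rose in 2 of 12 with renin on chow, near the 10.1% of all tested genes. These were Egr2, by 1.97 from a low level of 0.305 CPM, and Egr3, by 1.42, both transcription factor genes. Of 17 central nervous markers, 16 were called higher there too. With renin on the high-fat diet Egr3 rose by 0.66 (edgeR adjusted p = 0.0223), and between diets under renin it fell by 0.54. Between high-fat renin and chow null Egr2 rose by 1.27 and Egr3 by 0.88, and Nr4a1, an orphan nuclear receptor gene, fell by 1.59, which makes 3 of 12 called beside 8.29% of all genes. There 4 of 9 clock day genes and 4 of 6 cardiomyocyte markers were called lower, a fit that held the clock score constant called 0 genes in all, and the part of these markers was not tested. The Egr2 interaction was -1.43 (edgeR adjusted p = 0.0474), the 1 of 12 called there beside 10.4% of all genes. In the interaction and between diets under renin, 16 of 17 central nervous markers were called lower, and their part was not tested. Feedback inhibitors of RAS and ERK were called in 1 gene of 9 tested, near the share of all genes called (13.5% with renin on chow, 11.1% with renin on the high-fat diet). This was Errfi1, which encodes an inhibitor of the EGF receptor. It went from 30.7 ± 6.83 CPM (SD, n = 4) in chow null to 66.8 ± 6.68 with renin (n = 6), and was 28.8 ± 2.34 (n = 6) and 22.2 ± 2.31 (n = 5) in high-fat null and high-fat renin. Its log2 difference was 1.12 with renin on chow (edgeR adjusted p = 7.69e-08) and -0.37 with renin on the high-fat diet (adjusted p = 0.0230). Between diets under renin it was -1.59 (edgeR adjusted p = 1.42e-10), and between high-fat renin and chow null -0.47 (adjusted p = 0.0139). The Errfi1 interaction was -1.496 (edgeR adjusted p = 6.69e-07). The shares of all genes called there were 22.6%, 8.29% and 10.4% in that order. As for Egr2 and Egr3, 16 of 17 central nervous markers were called lower between diets under renin and in the interaction, and their part was not tested. None of these lists had a called gene between high-fat null and chow null.

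**Figure D5:**
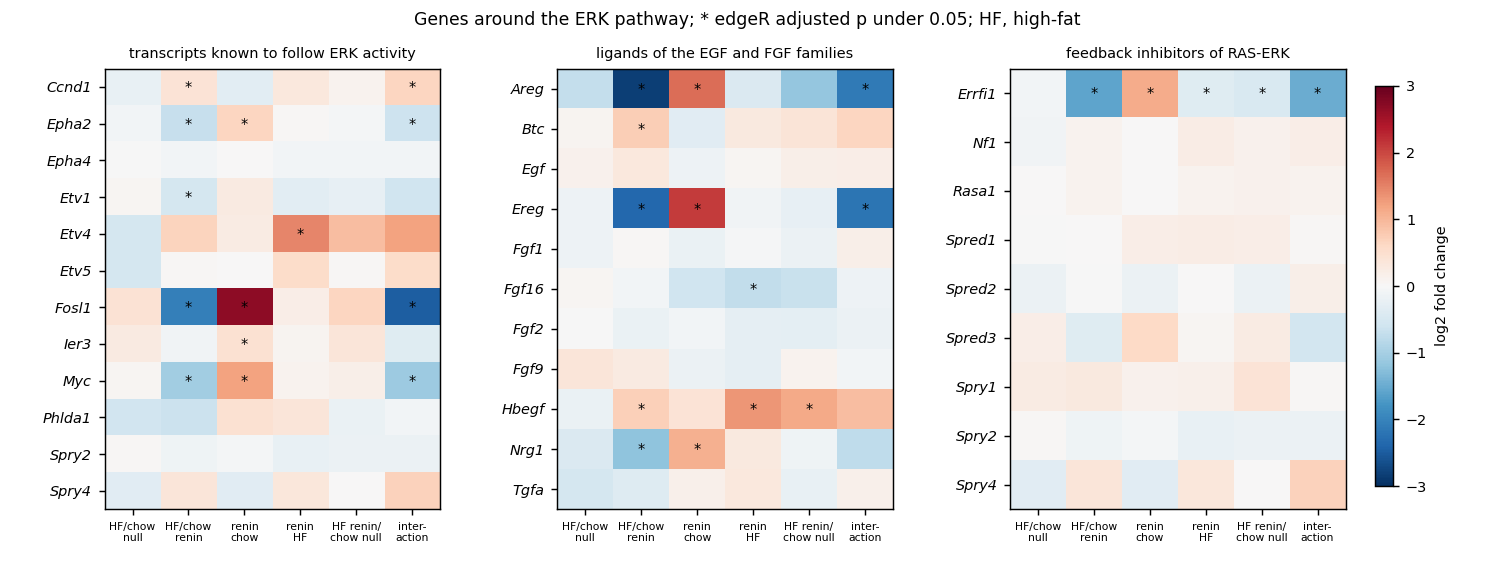
Log2 fold change of each tested gene in each comparison, for ERK-following transcripts, ligands of the EGF and FGF families, and feedback inhibitors of RAS-ERK. A * marks an edgeR adjusted p under 0.05. With renin on chow, 4 of 12 ERK-following transcripts and 3 of 11 ligands were called higher. None was called in the lists shown between high-fat null and chow null.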

How the data were processed

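Heart RNA of 21 mice was sequenced, 1 library per heart, and the sample titles gave the group and the number of each replicate. Per the file headers, the authors deposited a Salmon table for each library with estimated counts (not normalized) and TPM for 119215 transcripts. Salmon 1.10.2, DESeq2 1.40.2 and the builds GRCm38 and mm10 are named in the submitters' processing notes, and index and options are not given in the sources used here. A deposited matrix holds a scaled signal per gene and library, whose scaling is not stated, with the authors' log2 fold change and adjusted p-value per the file headers; from it only the gene list, the log2 fold change and the adjusted p-value were used.

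Transcripts were matched by identifier to GENCODE M21 (97.951% matched; the rest held 0.854% to 0.925% of reads and were left out), summed per gene and rounded, because the planned test takes raw counts. Of 23718 genes with reads, 15216 passed filterByExpr. edgeR 4.0.16 (R 4.3.3) was run with TMM, 1 term per group over all 21 libraries, robust glmQLFit and the quasi-likelihood F test. A gene was called at a Benjamini-Hochberg adjusted p under 0.05, adjusted over all tested genes. SE is the absolute log2 difference divided by the square root of F. Levels are TMM-scaled CPM. The script was checked on simulated data. The spread is between hearts, and nothing in the labels ties a replicate number to a litter or day. Depth was 18.743 to 29.265 M estimated reads.

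The named genes are the 8 members, the called members of 8 fixed pathway lists (where none was called, the first 2 of the list in the renin comparison on chow, of which 1 gene is not reported here), and for each member the 3 (Dusp5: 5) tested genes with the highest Pearson r. Marker lists covered cardiomyocyte, endothelial, fibroblast, smooth muscle, macrophage, atrial, adipose, blood, central nervous and clock genes. The members and lists were chosen with earlier results of these data known. Alternatives were RLE and upper-quartile scaling, no filter, DESeq2 1.42.0, a replicate block, clock or central nervous score as a covariate, only the groups compared, and leaving out each library.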

Additional observations from a re-analysis of the deposited data

Results flagged for a closer look

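Of 32 groups of 4 to 6 libraries looked at for a library far from the rest, 2 had one, where chance alone gives about 1 in 20. Dusp16 in chow null replicate 2 was 19.66 CPM, below the 21.33 to 21.67 CPM of the other 3. Dusp16 in high-fat null replicate 1 was 28.9 CPM, above the 18.11 to 22.05 CPM of the other 5. The response of Dusp4 to renin differed between the diets, with an interaction of -0.82 on the log2 scale (SE 0.26, edgeR quasi-likelihood test, adjusted p = 0.0408), and leaving out single libraries moved this adjusted p between 0.0191 and 0.0903.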

How the results depend on the processing

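Among 952 alternative values of single members, 0 reversed a called direction, 11 passed the threshold where the reported value did not, 19 no longer passed it, and 69 changed sign without a call on either side or, for the untested Dusp5 values, moved by more than their SE. With a covariate for the central nervous score, called members went from 2 to 0 for renin on chow, from 1 to 0 between diets under renin and from 1 to 0 in the interaction, and called genes from 2048 to 31, from 3440 to 40 and from 1589 to 24. In that fit 77 genes were called between high-fat null and chow null, against 10 in the reported fit, 111 with DESeq2, 6 with the clock score, 5 with only the groups compared and 0 with a replicate block. With the clock score, called genes went from 1696 to 8 for renin on the high-fat diet and from 1262 to 0 between high-fat renin and chow null. With only the groups compared they were 549 and 803, and 2 members were called between diets under renin in place of 1. Upper-quartile scaling and DESeq2 each called 1 member for renin on the high-fat diet, in place of 0. The cause of these changes was not tested.

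Upper-quartile scaling called 844 genes higher and 2247 lower between diets under renin (1491 and 1949 as reported), 1625 and 264 for renin on chow (1537 and 511), and 281 and 1200 in the interaction (478 and 1111). Leaving out 1 library gave 0 to 1 called members and 696 to 2394 genes (696, 934 and 784 without high-fat renin replicates 1, 2 and 5) for renin on the high-fat diet, 1 to 2 and 2473 to 3667 between diets under renin, 0 to 1 and 565 to 1723 (565 to 793 without chow null replicates 1, 2 or 4, or high-fat renin replicates 1, 2 or 5) between high-fat renin and chow null, 0 to 0 and 0 to 57 (0 without any 1 of chow null replicates 1 to 4 or high-fat null replicates 5 or 6, 1 to 3 without high-fat null replicates 1 to 3, 57 without replicate 4) between high-fat null and chow null, 2 to 3 and 1512 to 2268 for renin on chow, and 0 to 1 and 1220 to 1951 in the interaction. Libraries with the same replicate number had a mean r of 0.103 in their deviations (28 pairs, -0.223 to 0.424). Others had a mean r of -0.021 (136 pairs, -0.272 to 0.398), and 6 of 21 libraries matched best with their own number. Same-number libraries were thus slightly more alike on average, and whether the numbers pair the hearts was not tested. The replicate block changed no count of called members. Dusp4, with as few as 52 reads in a library, and Dusp10, with 95, are limited most by depth.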

Other observations

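The atypical small dual-specificity phosphatases, relatives that lack the kinase-docking domain of the classical enzymes, had 1 of 11 genes called higher and 1 called lower with renin on the high-fat diet, where 11.1% of all tested genes were called. Dusp3, which encodes the phosphatase VHR that acts on ERK and JNK, went from 112.9 ± 8.49 CPM (SD, n = 6) to 146.3 ± 18.1 (n = 5), a log2 difference of 0.37 (SE 0.07, edgeR quasi-likelihood test, adjusted p = 0.00241). It was also higher than in chow null by 0.46 (edgeR adjusted p = 0.00152) and than in chow renin by 0.55 (adjusted p = 3.17e-06). Between diets under renin 1 of 11 was called higher and 3 lower, beside 22.6% of all genes called. The 3 were Dusp14, Dusp15 and Dusp26, with log2 differences of -1.07, -1.76 and -1.87. In the interaction Dusp3 (0.47) and Dusp22 (0.31, edgeR adjusted p = 0.0375) were called higher, 2 of 11 beside 10.4% of all genes. Dusp23 went from 8.96 ± 1.24 CPM (n = 6) to 4.85 ± 1.59 (n = 5), a log2 difference of -0.88 (SE 0.16, edgeR adjusted p = 0.00201), and its log2 difference from chow null was -0.78 (adjusted p = 0.00974). Against high-fat null, chow null and chow renin, 2, 4 and 3 of 9 clock day genes were called lower in high-fat renin. So were 4 of 6 cardiomyocyte markers each time, and 1 was called higher than in chow renin. Of 17 central nervous markers, 16 were called lower in high-fat renin than in chow renin, and 16 lower in the interaction. No clock gene was called in the interaction, where 1 cardiomyocyte marker was called higher. The part of these markers was not tested.

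With renin on chow 3 of 11 rose, beside 10.1% of all tested genes, Dusp14 by 1.41, Dusp15 by 2.25 and Dusp26 by 1.25 on the log2 scale, all from levels under 1 CPM. Ptpn5, a tyrosine phosphatase of neurons that acts on ERK and p38, rose by 2.24, from 0.874 ± 0.302 CPM (SD, n = 4) to 4.18 ± 0.831 (n = 6; edgeR adjusted p = 2.86e-06), and fell by 2.20 between diets under renin. Of 17 central nervous markers, 16 were called higher with renin on chow and 16 lower between diets under renin, and their part was not tested. Ppm1b, a serine and threonine phosphatase, rose with renin on the high-fat diet by 0.32 (SE 0.06, edgeR adjusted p = 0.00221). Its relative Ppm1a rose between diets under renin by 0.19 (edgeR adjusted p = 0.0162) and between high-fat renin and chow null by 0.22 (adjusted p = 0.0317), as did Ppm1b, by 0.25 and 0.34. Among the other marker lists, 2 of 6 cardiomyocyte genes were called lower with renin on chow, 4 of 6 lower with renin on the high-fat diet and between high-fat renin and chow null, and 4 lower and 1 higher between diets under renin. Endothelial markers were called in 2 of 5 between diets under renin, and fibroblast, smooth muscle, adipose and blood markers in no comparison. Macrophage markers were called in 1 of 5 (lower, renin on chow) and atrial markers in 1 of 4 (higher, renin on the high-fat diet).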
